A study of Mus musculus with 16 samples.

Results

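The genes described are 36 genes of the presynaptic terminal and of neurons in general, measured in whole mouse brain. They were chosen by gene name on the array: 6 SNARE proteins and SNARE recycling factors, 8 synaptotagmins and complexins, 9 proteins of the synaptic vesicle, 5 proteins of the active zone and of vesicle priming or retrieval, and 8 pan-neuronal genes. The array carried 34821 gene names, 23032 of them passed the filter on dim probes and were tested, and all 36 members were among them. The members had 60 probes, 59 of which were kept, and the probe that stood for each member was well above background on all 16 arrays.

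The brains came from male C57BL/6J mice, as labelled, with the transporter Slc5a8 (wild type) or deficient for it, at 4 months (young) or 18 months (old). Slc5a8 is a sodium-coupled carrier that brings small organic acids, among them lactate, pyruvate and ketone bodies, into cells. Each of the 4 groups had 4 arrays, described as biological replicates with no further word on the animals, and the p-values rest on the spread within these sets of 4. The labels do not give the kind of deficiency, nor whether the wild-type mice were littermates.

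Neurons release transmitter when a vesicle fuses with the plasma membrane of the terminal. Fusion is driven by SNARE proteins on the vesicle and on the target membrane, is held ready by complexins, and is triggered by calcium acting on synaptotagmins. Proteins of the active zone place the vesicles at the release site, and the membrane is afterwards retrieved by endocytosis. In whole-brain RNA the transcripts of these proteins, like those of neurofilaments and other neuronal structural proteins, come mostly from neurons, so fewer neurons and less RNA per neuron cannot be told apart.

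Levels are log2 signals relative to the 75th percentile of the array, and they are compared between arrays for a given probe, never between probes. Differences are log2 differences ± SE from limma's fit of all 4 groups (n = 4 arrays per group), deficient minus wild type or 18 minus 4 months. The words rose, fell and called are kept for an adjusted p (Benjamini-Hochberg over all 23032 genes) under 0.05.

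Between 58.4% and 66.1% of spots per array were well above background, and array brightness, as the 75th percentile of processed signal, spanned 626 to 1348. On 0 of 16 arrays was the Slc5a8 probe well above background (levels between -7.9 and -6.34), so it checked no genotype label. The deficient arrays filled 1 slide and the wild-type arrays another, which means that genotype and slide cannot be told apart. Each group took 1 row of its slide, and row and group cannot be told apart either. Within a row the column of the slide was the same as the replicate number on all 16 arrays, so a fit with the replicate number as a block is also a fit with the column as a block. Young deficient array 1 stood apart from the other 15, at 97.2 on a first principal component that held 29.5% of the variance. Next on the positive side came old wild-type array 2 at 26.5 and young wild-type array 4 at 26.1, about as far from 0 as young wild-type array 2 at -26.2. The 75th percentiles of the first 3 were 626, 774 and 826, and old wild-type array 3, at -23.8 on the component, was at 826 too.

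Few members passed the test. At 4 months 29 of 36 members had a higher mean in deficient than in wild-type brains, with a median difference of 0.13, and 1 member, Cplx1, was called, against 1.53% of all genes tested. Over all genes 53.5% were higher and the median difference was 0.022. At 18 months 19 of 36 were higher, the median was 0.01 and 0 members were called by limma, against 1.47% of all genes. Averaged over both ages 26 members were higher, the median was 0.08 and Cplx1 was again the called member, against a background of 3.19%. An unadjusted p under 0.05 was reached by 5 members at 4 months, 4 at 18 months and 8 in the average, which is 13.9%, 11.1% and 22.2% of them. The same shares over all genes were 17.4%, 9.91% and 15.4%.

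**Figure D1:**
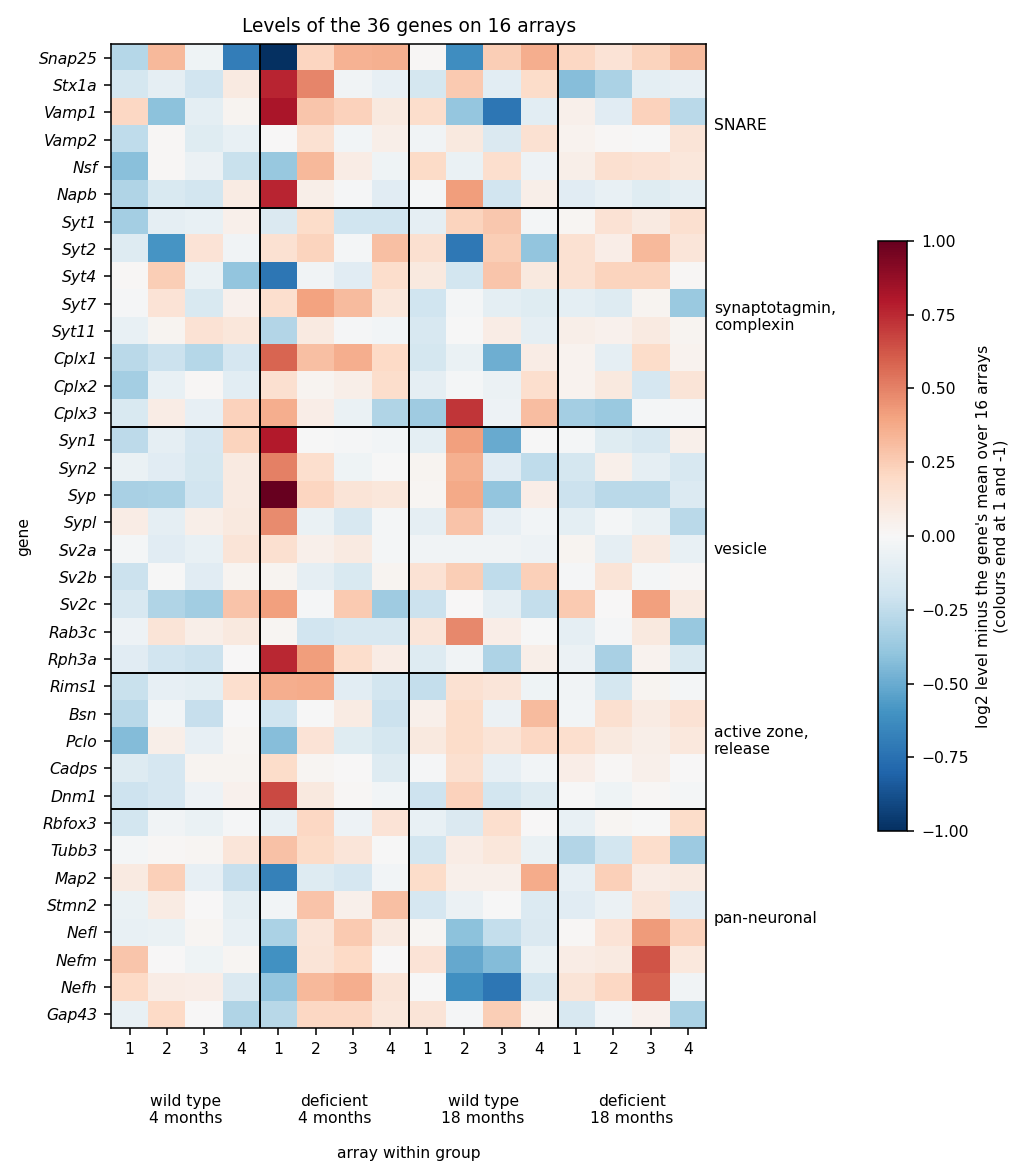
Heat map of the 36 genes (rows, grouped by role) on the 16 arrays (columns, grouped by genotype and age); colour gives the log2 level minus the gene's mean over the 16 arrays, red for higher and blue for lower. The column of young deficient array 1 holds both the strongest red (Syp) and the strongest blue (Snap25).

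**Figure D2:**
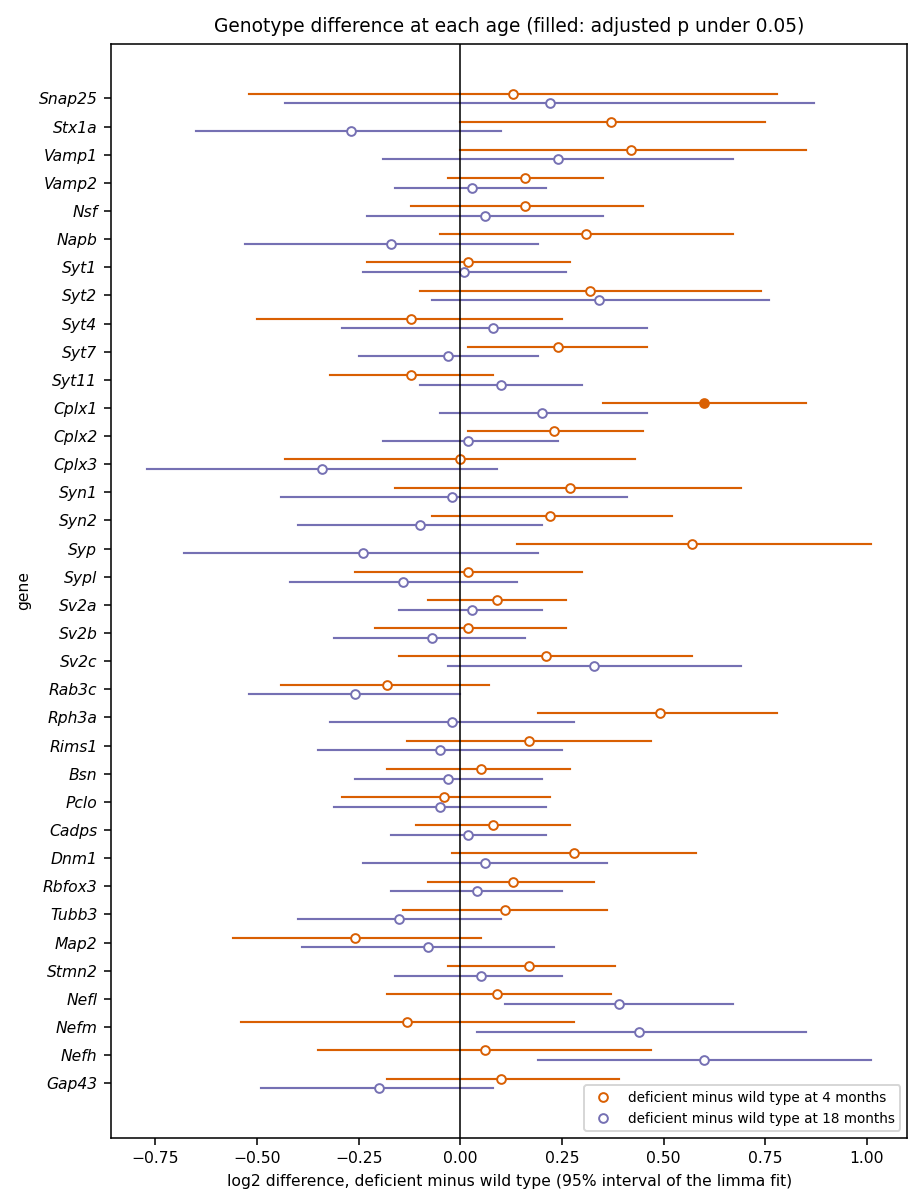
Log2 difference between deficient and wild-type brains for each of the 36 genes at 4 months (orange) and 18 months (purple), with the 95% interval of the limma fit (n = 4 arrays per group). The filled point, Cplx1 at 4 months (0.60), is the difference with an adjusted p under 0.05, and the 3 neurofilament genes have their highest points at 18 months.

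Cplx1 encodes complexin 1, which binds the assembled SNARE complex and holds it until calcium arrives. Its level on the young wild-type arrays was 5.81, 5.86, 5.79 and 5.91, and on the young deficient arrays 6.66, 6.38, 6.44 and 6.28. Every young deficient array lay above every young wild-type array. Cplx1 rose by 0.60 ± 0.12 in young deficient brains (1.52-fold, 95% interval 0.35 to 0.85, limma adjusted p = 0.0222). Without young deficient array 1, which held the highest value, the difference was 0.53 with an adjusted p of 0.0433.

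In old brains the levels of Cplx1 were 5.9, 6.01, 5.59 and 6.15 on the wild-type arrays and 6.11, 5.99, 6.26 and 6.11 on the deficient arrays. These groups overlapped, and the difference was 0.20 ± 0.12 (95% interval -0.05 to 0.46, limma adjusted p = 0.659). The genotype difference at 18 months was lower than that at 4 months by 0.40 ± 0.17, which did not pass the test (adjusted p = 0.427), so the ages were not shown to differ. Averaged over both ages Cplx1 rose by 0.40 ± 0.08 (1.32-fold, limma adjusted p = 0.0148), and this call held under all 24 alternatives run, with adjusted p between 0.00629 and 0.0411. The call at 4 months was lost in 8 of 25 alternatives, where the difference was 0.55 to 0.60 and the adjusted p 0.0513 to 0.0958. These were the fit without a filter on dim probes (0.0547), the fit of only the groups compared (0.0958), the fit with replicate number (the slide column) as a block (0.0574), the fit without the 3 arrays over 25 on the first component (0.058), and the fits without young deficient array 3 (0.0513) or young wild-type array 1, 2 or 3 (0.0659, 0.0583 and 0.0633).

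**Figure D3:**
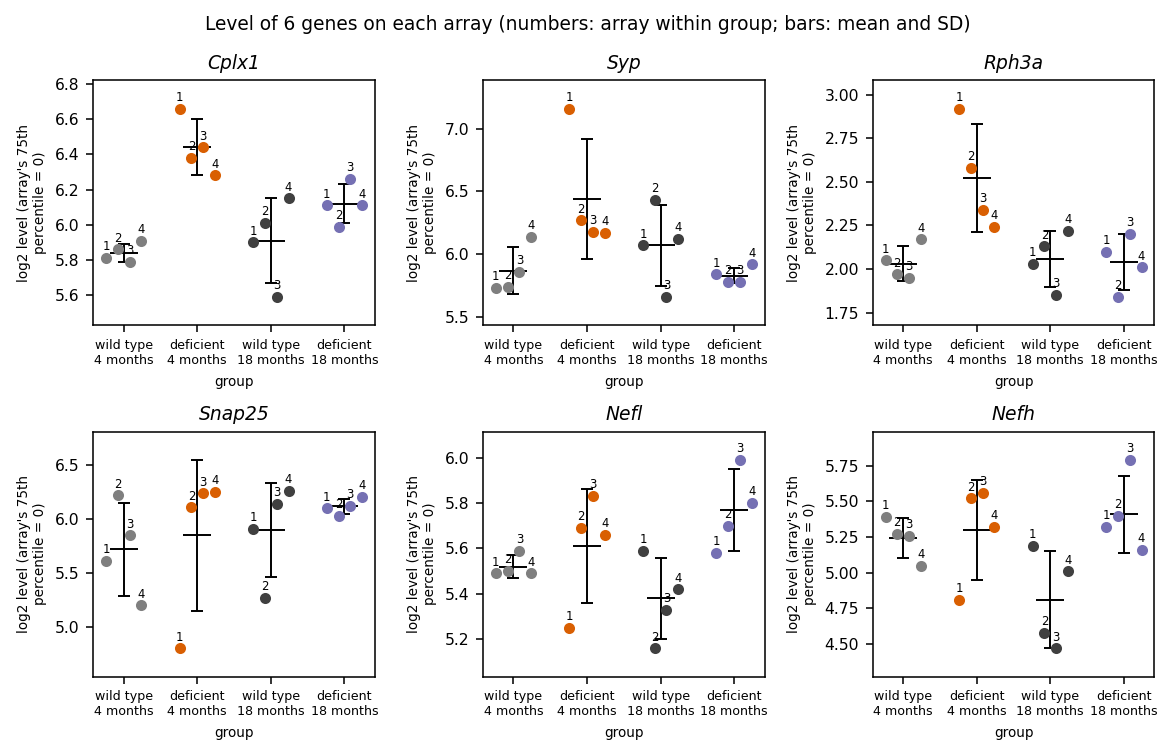
Log2 level, relative to the 75th percentile of the array, of 6 genes on each array in the 4 groups; numbers give the array within its group and black bars the mean and SD (n = 4). For Cplx1 the young deficient arrays (6.28 to 6.66) lie above the young wild-type arrays (5.79 to 5.91), whereas Syp and Snap25 have array 1 of that group far above and far below the other 3.

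The SNARE members were higher in young deficient brains in 6 of 6 cases, with a median difference of 0.24, and 0 of 6 were called by limma or had an unadjusted p under 0.05. Stx1a, a plasma-membrane SNARE, differed by 0.37 ± 0.17 (limma adjusted p = 0.288), and Napb, an attachment protein for the recycling ATPase, by 0.31 ± 0.17 (0.352). Vamp1, a vesicle SNARE abundant in brainstem and spinal cord, differed by 0.42 ± 0.20 at 4 months (0.292) and by 0.33 ± 0.14 in the average over ages (0.265). Vamp2, the main vesicle SNARE of the forebrain, differed by 0.16 ± 0.09, and Nsf, the ATPase that takes SNARE complexes apart, by 0.16 ± 0.14. Vamp2 was closely spaced, and ran from 5.29 to 5.56 on the young wild-type arrays and from 5.52 to 5.7 on the young deficient arrays. Nsf spread more widely, from 4.89 to 5.32 and from 4.93 to 5.63.

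Snap25, the plasma-membrane SNARE that supplies a pair of helices to the complex, had the widest spread of the SNARE members. It stood at 5.61, 6.22, 5.85 and 5.2 on the young wild-type arrays and at 4.8, 6.11, 6.24 and 6.25 on the young deficient arrays. Young deficient array 1 was the lowest of all 16 and the other 3 were among the highest of the young arrays. The genotype difference at 4 months was 0.13 ± 0.30 (limma adjusted p = 0.853) with that array and 0.48 ± 0.23 (0.326) without it. In old brains Snap25 stood at 5.91, 5.27, 6.14 and 6.26 in wild type and between 6.03 and 6.21 in deficient, a difference of 0.22 ± 0.30.

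Among the synaptotagmins, Syt1, the fast calcium sensor of release, differed by 0.02 ± 0.12 at 4 months and by 0.01 ± 0.12 at 18 months, with 95% intervals of -0.23 to 0.27 and -0.24 to 0.26. Syt2, the fast sensor of hindbrain and spinal synapses, was higher in deficient brains by 0.32 ± 0.20 and 0.34 ± 0.20 at the 2 ages, and by 0.33 ± 0.14 in the average (limma adjusted p = 0.251). Its levels in old wild-type brains were -1.21, -2.09, -1.13 and -1.77, and in old deficient brains they lay between -1.31 and -1.05. Arrays 2 and 4 of the old wild type were low and the groups overlapped.

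Syt7, a slower calcium sensor with a high affinity for calcium, was at 0.16, 0.31, 0.02 and 0.21 in young wild type and at 0.34, 0.57, 0.49 and 0.28 in young deficient. The difference of 0.24 ± 0.10 had a limma adjusted p of 0.24. Syt4, a synaptotagmin that lacks fast calcium sensing, and Syt11, which does not bind calcium, differed by -0.12 ± 0.18 and -0.12 ± 0.09. Of the other complexins, Cplx2, the forebrain form, differed by 0.23 ± 0.10 (0.251) with the 2 young groups apart, and Cplx3, a form of the retina and of a few brain neurons, by 0 ± 0.20.

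Of the 9 vesicle members 8 were higher in young deficient brains (median 0.21) and 2 at 18 months (median -0.07), and 0 were called by limma at either age, with 2 and 1 at an unadjusted p under 0.05. Syp, synaptophysin, an abundant integral protein of the vesicle membrane, was at 5.73, 5.74, 5.86 and 6.14 on the young wild-type arrays. On the young deficient arrays it was at 7.16, 6.27, 6.18 and 6.17. The groups did not overlap, but array 4 of the wild type lay just below the lowest deficient array, and deficient array 1 lay 0.96 above the mean of the other 3. The difference was 0.57 ± 0.20 (limma adjusted p = 0.167) with array 1 and 0.33 ± 0.15 (0.286) without it.

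Rph3a, rabphilin, which binds Rab3 proteins on the vesicle, was at 2.05, 1.97, 1.95 and 2.17 in young wild type and at 2.92, 2.58, 2.34 and 2.24 in young deficient. The groups did not overlap, and the difference was 0.49 ± 0.14 (limma adjusted p = 0.0952). Together with Cplx1, Cplx2 and Syp this made 4 members whose young deficient arrays all lay above the young wild-type arrays, and 0 whose arrays all lay below. Over all genes 9.45% had such separate groups at 4 months, in either direction. At 18 months Sv2c was the 1 such member, by less than the 2 decimals printed here resolve, against 8.1% of all genes.

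Syn1 and Syn2, the synapsins that tether vesicles to each other, differed by 0.27 ± 0.20 and 0.22 ± 0.14 at 4 months. For Syn1 the difference was 0.06 ± 0.17 without young deficient array 1. Sv2a and Sv2b, glycoproteins of the vesicle membrane, differed by 0.09 ± 0.08 and 0.02 ± 0.11, and Sypl, a broadly expressed relative of synaptophysin, by 0.02 ± 0.13. Sv2c, the form of the basal ganglia and hindbrain, differed by 0.21 ± 0.17 at 4 months and 0.33 ± 0.17 at 18 months. Its old wild-type arrays were at -3.44, -3.22, -3.31 and -3.46 and its old deficient arrays at -2.96, -3.22, -2.81 and -3.13, so that array 2 of each group came to the same value at this precision. The dimmer Sv2c probes at positions 3806 and 4136 differed by 0.51 ± 0.19 and 0.41 ± 0.20 at 4 months. At 18 months they differed by 0.49 ± 0.19 and 0.55 ± 0.20.

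The active-zone and release members had small differences, and 0 of 5 were called by limma, or had an unadjusted p under 0.05, at either age. Bsn and Pclo, giant scaffold proteins of the active zone, differed by 0.05 ± 0.11 and -0.04 ± 0.12 at 4 months and by -0.03 ± 0.11 and -0.05 ± 0.12 at 18 months. Rims1, which links vesicles to calcium channels, differed by 0.17 ± 0.14 and -0.05 ± 0.14 at the 2 ages. Cadps, a priming factor of dense-core vesicles, differed by 0.08 ± 0.09 and 0.02 ± 0.09, and Dnm1, the dynamin that severs endocytic vesicles, by 0.28 ± 0.14 and 0.06 ± 0.14. The limma adjusted p of these 5 members was 0.317 or more at 4 months and 0.962 or more at 18 months.

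Of the pan-neuronal members, the neurofilament subunits, which fill large axons, had the highest genotype differences at 18 months. Nefh, the heavy subunit, was at 5.19, 4.58, 4.47 and 5.01 on the old wild-type arrays and at 5.32, 5.4, 5.79 and 5.16 on the old deficient arrays. Old wild-type arrays 2 and 3 were the lowest of all 16, and wild-type array 1 lay just above deficient array 4. The difference was 0.60 ± 0.19 (limma adjusted p = 0.191), and a second Nefh probe gave 0.66 ± 0.18.

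Nefm, the medium subunit, was at 3.65, 3, 3.08 and 3.45 in old wild type and at 3.59, 3.6, 4.14 and 3.62 in old deficient, a difference of 0.44 ± 0.19 (limma adjusted p = 0.432). Nefl, the light subunit, was at 5.59, 5.16, 5.33 and 5.42 and at 5.58, 5.7, 5.99 and 5.8, a difference of 0.39 ± 0.13 (0.218). In all 3 genes old wild-type arrays 2 and 3 were low, old deficient array 3 was the highest of its group, and the groups overlapped through wild-type array 1. At 4 months the 3 differences were 0.06 ± 0.19, -0.13 ± 0.19 and 0.09 ± 0.13, and the change of the genotype difference between the ages passed the test in none of the 3 (interaction 0.54, 0.57 and 0.30, limma adjusted p 0.497, 0.471 and 0.573). Without young deficient array 1, which was low in all 3, Nefl was called in the average over ages (0.30, limma adjusted p = 0.0413). In that fit 4.11% of all genes were called.

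The other 5 pan-neuronal members varied less. Rbfox3, the nuclear protein detected by the NeuN antibody, differed by 0.13 ± 0.10 at 4 months and by 0.04 ± 0.10 at 18 months, with 95% intervals of -0.08 to 0.33 and -0.17 to 0.25. These intervals are those of its brightest probe. The Rbfox3 probes at positions 1016 and 1461 differed by 0.29 ± 0.17 and 0.40 ± 0.18 at 4 months. At 18 months they differed by -0.12 ± 0.17 and -0.04 ± 0.18. Tubb3, the neuronal tubulin, differed by 0.11 ± 0.12 and -0.15 ± 0.12, and Map2, a dendritic microtubule protein, by -0.26 ± 0.14 and -0.08 ± 0.14. Stmn2 and Gap43, proteins of growing axons, differed by 0.17 ± 0.10 and 0.10 ± 0.13 at 4 months and by 0.05 ± 0.10 and -0.20 ± 0.13 at 18 months.

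Markers of caudal hindbrain and spinal cord differed between the genotypes beside these genes. The 10 markers of caudal hindbrain and spinal cord, Slc6a5 and 9 Hox genes, had a mean level, relative to their means over all arrays, of 1.01 to 2.37 on the young deficient arrays and -0.17 to 0.93 on the young wild-type arrays. In old brains the range was -0.36 to 0.65 in deficient and -3.12 to -0.28 in wild type. Array 1 of the old wild type had all 10 well above background, and arrays 2, 3 and 4 had 1 each. All 10 were well above background on every young deficient array, 6 to 10 on the young wild-type and 8 to 9 on the old deficient arrays. The filter asked for this throughout 1 group, so a marker could enter through the group where it was high. Differences at 18 months are mostly set against signals that were not well above background. The median genotype difference of this list was 1.30 at 4 months, with 0 called by limma and 4 at an unadjusted p under 0.05, and 2.23 at 18 months, with 5 called and 9 at an unadjusted p under 0.05. Of all genes 1.53% and 1.47% were called and 17.4% and 9.91% had such a p. Of 10 markers of the cerebellum 9 were higher in deficient brains at 4 months (median 0.49) and 3 at 18 months (median -0.06), with 0 called by limma at either age and 5 and 0 at an unadjusted p under 0.05. Their mean level ran from -0.04 to 0.91 in young deficient and from -0.38 to 0.25 in young wild type, with overlap. Of 8 markers of motor and sensory neurons with large fibres 3 were higher at 4 months (median -0.10) and 7 at 18 months (median 0.45), with 0 called by limma and 2 and 1 at an unadjusted p under 0.05. Other marker lists had calls too: at 18 months 1 of 10 microglia markers was called lower (0 of 10 were higher), and of 10 oligodendrocyte markers 1 was called higher and 1 lower. At 4 months 1 of 6 olfactory markers was called lower. The mean level of all 6 was 0.06 to 0.28 in young deficient and 0.73 to 1.04 in young wild type. Their median level overlapped between these groups, at -0.15 to 0.29 and 0.03 to 0.27. Of 9 striatal markers 9 were higher at 18 months (median 0.31), with 0 called by limma and 1 at an unadjusted p under 0.05. The lists of astrocytes, endothelium, forebrain excitatory neurons, retina and pineal, and pituitary had 0 called by limma at either age, with 0 to 3 at an unadjusted p under 0.05. The part of any of these markers in the values of Cplx1, Vamp1, Syt2 and the neurofilament genes was not tested.

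Between 4 and 18 months 0 members were called by limma in wild type, against 0.421% of all genes, and 0 in deficient brains, against 2.39%. The same held for the average over genotypes (0 called, background 1.61%) and for the interaction of genotype and age (0 called, background 0.187%). An unadjusted p under 0.05 was reached by 3, 7, 7 and 4 members in these comparisons, 8.33%, 19.4%, 19.4% and 11.1% of them, against 6.35%, 21%, 14.8% and 10.6% of all genes. The median member difference was 0.07 with age in wild type and -0.05 in deficient brains, and 24 and 15 of 36 members were higher in old brains.

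In wild-type brains the highest differences with age were those of the active-zone scaffolds. Pclo was at 3.34, 3.83, 3.69 and 3.79 on the young and at 3.87, 3.96, 3.9 and 3.98 on the old wild-type arrays, a difference of 0.27 ± 0.12 (limma adjusted p = 0.76). It was the 1 member whose wild-type age groups did not overlap, against 3.5% of all genes. These Pclo values are those of the probe at position 16786, which stood for the gene. The Pclo probes at 11027, 15115 and 20023 differed with age in wild type by 0.15 ± 0.20, -0.05 ± 0.17 and -0.17 ± 0.13, so a rise of the gene was not shown. Bsn differed by 0.25 ± 0.11 (0.706). In deficient brains the same genes differed with age by 0.25 ± 0.12 and 0.18 ± 0.11, and in the average over genotypes by 0.26 ± 0.09 and 0.21 ± 0.08 (adjusted p = 0.157 and 0.194). The lowest value in wild type was that of Nefh, -0.43 ± 0.19 (0.749).

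In deficient brains several vesicle and sensor members had lower values at 18 months, without a call. Syp was at 5.84, 5.78, 5.78 and 5.92 on the old deficient arrays, all below the young ones, a difference of -0.61 ± 0.20 (limma adjusted p = 0.118). Rph3a, at 2.1, 1.84, 2.2 and 2.01, differed by -0.48 ± 0.14 (0.0778), and Cplx1 by -0.32 ± 0.12 (0.147). Syt7 had the smallest adjusted p, with 0.07, 0.04, 0.2 and -0.2 on the old deficient arrays and a difference of -0.39 ± 0.10 (0.0586). These 4 were the members whose old deficient arrays all lay below the young deficient arrays, where 18% of all genes had separate groups in either direction. The Syt7 values are those of its brightest probe, at position 6312. The Syt7 probe at 1996 differed with age in deficient brains by -0.07 ± 0.19 (0.851 in the limma fit of single probes). Stx1a differed by -0.52 ± 0.17 (0.122) and Tubb3 by -0.32 ± 0.12 (0.151), and Map2 had the largest positive value, 0.34 ± 0.14 (0.205). The young deficient group is the control of these age differences and the test group of the genotype differences at 4 months, so a high value in it enters both.

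The array that stood apart, young deficient array 1, moved the members in opposite directions. Compared with the mean of the other 3 young deficient arrays, 19 of 36 members were higher on it, and 13 differed by more than 0.5 in either direction. The highest were Syp (0.96), Syn1 (0.81), Napb (0.77), Stx1a (0.64), Dnm1 (0.63) and Vamp1 (0.61). The lowest were Snap25 (-1.39), Syt4 (-0.73), Nefm (-0.72), Nefh (-0.66) and Map2 (-0.57). These deviations followed the base composition of the probes. Over the 36 members their correlation with the percentage of G and C in the 60-base probe was 0.69 by Pearson and 0.68 by Spearman, and over all 23032 genes it was 0.58 and 0.66. This is a description, since the points share an array.

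The first 30 bases of the probes at the 2 ends of this range, and of the probe of the called gene, are shown with G and C in capitals. Coordinates are NCBI37/mm9 as in the files. The Syp probe, at chrX:7230297-7230356 on the plus strand, is 55% G and C over its 60 bases. The Cplx1 probe, at chr5:108947895-108947954 on the minus strand, is 45%, and the Snap25 probe, at chr2:136607709-136607768 on the plus strand, is 35%.
Syp: GCCCttCGGtattGtttGaaGaCCCCCCtC
Cplx1: CCaGGtGtGtGGCttaGCattGaCCttCat
Snap25: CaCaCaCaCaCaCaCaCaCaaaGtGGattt
The stretches hold 17, 15 and 13 G or C bases of 30, and the Snap25 stretch opens with a run of alternating C and A.

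**Figure D4:**
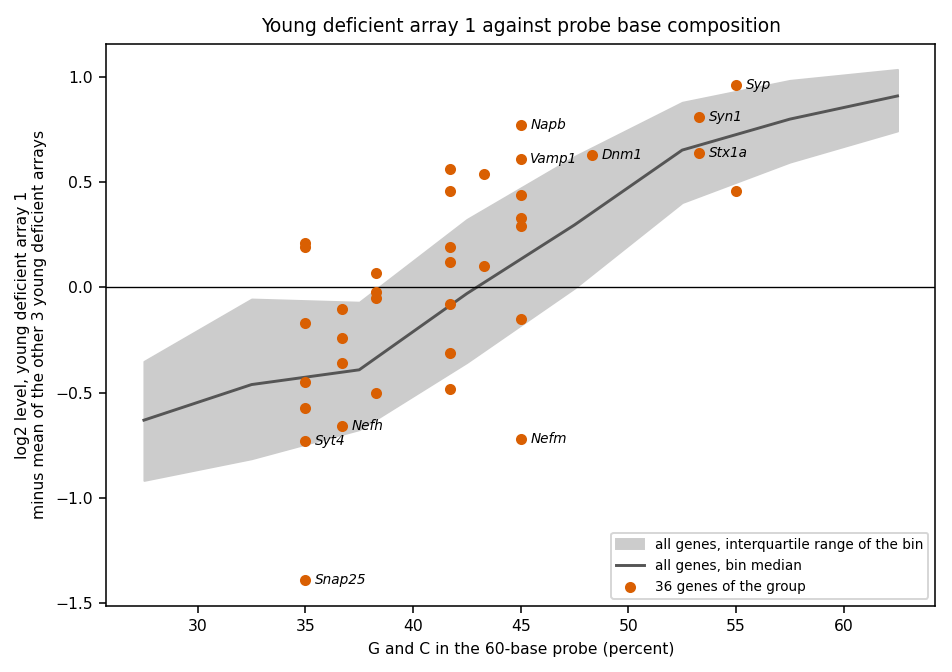
Level on young deficient array 1 minus the mean of the other 3 young deficient arrays (log2, vertical) against the percentage of G and C in the probe (horizontal); orange points are the 36 genes, the grey line and band the median and interquartile range of all genes in bins of probe composition. The members tend to climb with the band, and the lowest is Snap25 at 35% (-1.39) and the highest Syp at 55% (0.96). They scatter widely around it, with Cadps at 35% at 0.21 and Nefm at 45% at -0.72.

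Over all genes, the probes at or under the lower quartile of G and C content (36.7%) had a median deviation from their mean over arrays of -0.38 on young deficient array 1, and those at or over the upper quartile (45%) of 0.49. Old wild-type array 2 had -0.13 and 0.18, and young wild-type array 4 had -0.14 and 0.16. On the other 13 arrays both medians lay within 0.14 of 0. The largest of these were on young wild-type array 2, 0.14 and -0.14, close in size to those of the 2 wild-type arrays just named and opposite in direction. A correction for probe composition on each array, added after seeing the data, gave more calls. At 4 months it called 3 members, Cplx1 (0.56), Syp (0.38, limma adjusted p = 0.0397) and Rph3a (0.47, 0.0484), against 3.52% of all genes. With age in deficient brains it called 5, Syt7 (-0.48), Syp (-0.37), Rph3a (-0.46), Stmn2 (-0.29) and Gap43 (-0.29), against 5.35% of all genes. In the average over genotypes it called Syt7, against 3.2%. Under this correction the Syp difference at 4 months was smaller than without it, 0.38 ± 0.09 against 0.57 ± 0.20, and its SE was smaller too.

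Of the members, 14 had several kept probes, and in 5 of these the genotype differences of the probes had both signs at 4 months: Cplx2, Nsf, Pclo, Map2 and Sypl. Pclo ran from -0.28 to 0.27 over 4 probes, Map2 from -0.26 to 0.15 over 3, and Sypl from -0.31 to 0.02. At 4 months Syt7, Sv2c, Rbfox3, Rims1, Dnm1, Napb, Nefh and Syn2 were higher at all their kept probes. Rab3c, a vesicle-bound small GTPase of the Rab3 family, had 3 probes. Those at transcript positions 2305 and 2311 overlap by 54 bases, and the probe at position 8381 lies 6070 bases beyond the latter. Their first 30 bases, with G and C in capitals, show the overlap of the first pair. They map to chr13:110850530-110850589, chr13:110850524-110850583 and chr13:110844454-110844513, all on the minus strand.
Rab3c 2305: GCtaGaatGttCtaCaGaGtGaGttCtaGG
Rab3c 2311: atGttCtaCaGaGtGaGttCtaGGataGCa
Rab3c 8381: CtGttaGGtatttaGtttGtGtGtGaattC
The probe at 2305 was at 4.47, 4.73, 4.44 and 4.43 in young wild type and at 3.77, 4.07, 4.03 and 4.01 in young deficient. All young deficient arrays lay below all young wild-type arrays, and in the fit of single probes it fell by 0.55 ± 0.13 (limma adjusted p = 0.0476, background 1.45% of 33074 probes). The probe at 2311 differed by -0.53 ± 0.13 (0.0607). The probe at 8381, the brightest and the one that stood for the gene, differed by -0.18 ± 0.12 (0.46). At 18 months the order was turned, with -0.03 ± 0.13 and -0.01 ± 0.13 at the upstream probes and -0.26 ± 0.12 at 8381.

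The Cplx2 probes fell into upstream and downstream kinds, which also differ in base composition. The upstream probes hold 51.7% to 60% G and C, and the probe at 4846 holds 38.3%. Position and composition cannot be told apart here. The 4 probes at positions 708 to 994 moved together over the arrays. The probe at 994 was at 7.31, 6.29, 5.67 and 5.85 on the young deficient arrays and at 6.34, 7.18, 7.07 and 6.18 on the old wild-type arrays. The probe at 4846, which stood for the gene, was at 7, 6.87, 6.9 and 7.02 and at 6.75, 6.82, 6.78 and 7.01 on the same arrays. Genotype differences at 4 months ran from -0.41 ± 0.31 at position 994 to 0.23 ± 0.10 at position 4846. Of the upstream probes, the file places those at 708 and 960 on chromosomes 5 and 6, and the others of the gene on chromosome 13, and what these probes hybridised to was not tested.

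**Figure D5:**
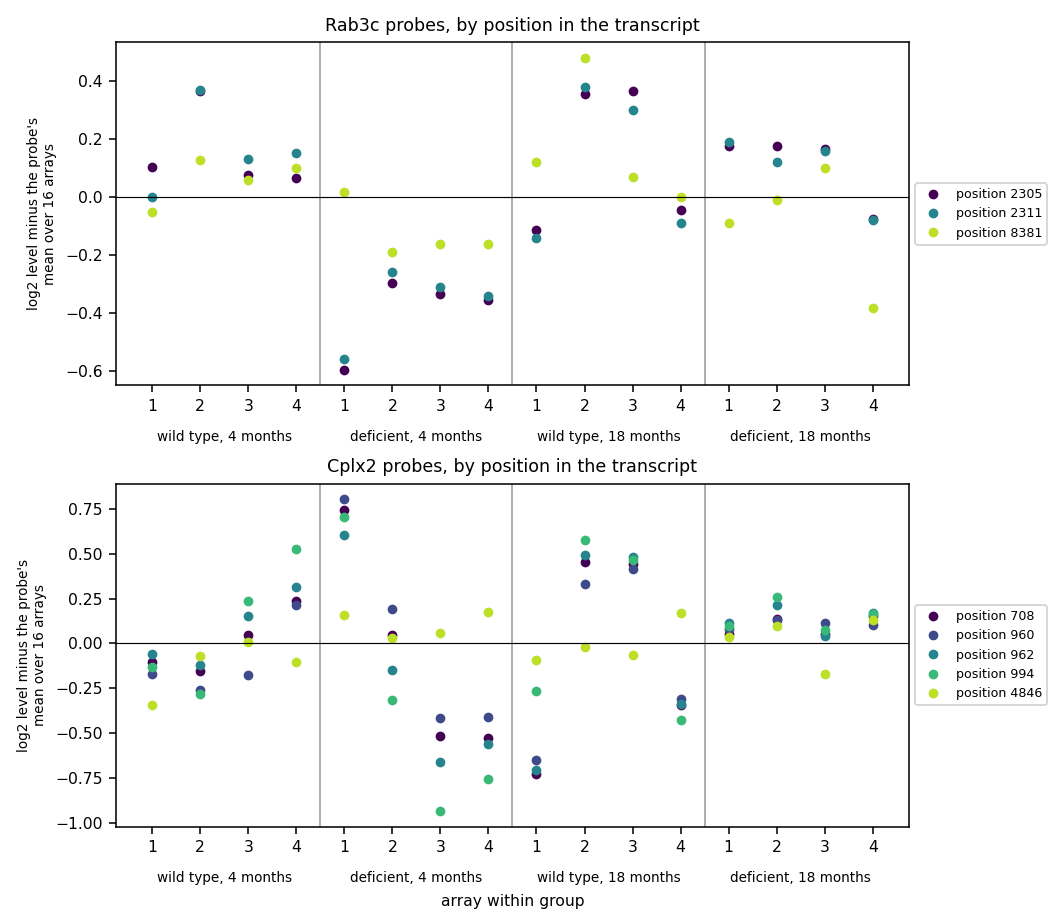
Level of each probe of Rab3c (top) and Cplx2 (bottom) on the 16 arrays, as log2 level minus the probe's mean over the arrays; colours give the position of the probe in the transcript. The upstream Rab3c probes are low on all 4 young deficient arrays, and the upstream Cplx2 probes scatter between arrays of a group where the probe at 4846 lies closer to 0 on most arrays.

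Nsf differed at 4 months by -0.45 ± 0.22 at position 1793 and by 0.16 ± 0.14 at position 2881, and neither was called. Over the 1922 transcripts with probes at least 1000 bases apart, the downstream probe minus the upstream probe, relative to its mean over arrays, had a median from -0.22 on young deficient array 1 to 0.17 on young wild-type array 2. The part of this measure in the probe differences was not tested.

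Other genes of the same compartments were read from lists written with earlier results known. Of 61 further presynaptic genes 44 were higher in young deficient brains (median 0.08) and 28 in old ones (median -0.01), with 0 called by limma at either age and 9 and 3 at an unadjusted p under 0.05, which 17.4% and 9.91% of all genes reached. Averaged over ages Rab3d, a Rab3 family GTPase of secretory granules, rose by 0.29 ± 0.07 (limma adjusted p = 0.0463), the 1 gene called of these 61, where 3.19% of all genes were called. Of 24 further genes listed as pan-neuronal 19 were higher in young deficient brains (median 0.15) and 15 in old ones (median 0.05). At either age 0 of these were called by limma, and 4 and 3 had an unadjusted p under 0.05. With age in deficient brains Tubb4a, a brain tubulin, fell by 0.86 ± 0.21 (limma adjusted p = 0.0433), the 1 call in that list, where 2.39% of all genes were called. In the same comparison 2 of 10 oligodendrocyte markers were higher, with a median of -0.27. The cell type behind the Tubb4a signal was not tested.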

How the data were processed

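Whole-brain RNA was hybridised to 16 Agilent arrays in 1 colour. Groups and replicate numbers came from the sample labels, in which the strain and age values are interchanged. Per the file headers, Feature Extraction 10.7.3.1 (Agilent) gave background-subtracted spot intensities. The value table deposited for the series holds log2 values, and the submitters' processing notes name limma. Its scale is not stated: its columns ranked probes as the median spot signal did (Spearman's rho at least 0.99997) and had medians of 6.606 to 6.622. It served as an alternative.

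Levels were log2 of the processed intensity minus the array's 75th percentile. Control spots and 98 to 182 outlier spots per array were left out. Of 55681 probes, the 33074 kept were well above background throughout at least 1 group, and the brightest of a gene stood for it. Group means were fitted by limma 3.58.1 in R 4.3.3 (data.table package 1.17.8), with 12 residual and 2.84 prior degrees of freedom, and the code was tested on simulated data. The number of arrays limits the precision.

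The text may name all 36 members, every called gene of the other lists (6 at most by p), the largest differences, and members whose probes disagree. Members and lists were chosen with earlier results of these data known. The alternatives were normexp (offset 50), quantile normalization, the deposited table, no filter, the mean of a gene's probes, the groups compared alone, a replicate block, and each array left out. A probe composition correction and leaving out the 3 arrays over 25 on the first principal component were added after seeing the data. Correlations of same-numbered arrays gave no clear sign that replicate numbers pair the samples.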

Additional observations from a re-analysis of the deposited data

Results flagged for a closer look

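Each member was examined within each group for an array whose gap to the nearest of the other 3 was, as a share of the group's range, above Dixon's 95% critical value. Of 144 sets 9 met this, where chance gives about 1 in 20 groups, or 7.2. Values are log2 differences of the array from the mean of the other 3.

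Young deficient array 1 gave 4 of the 9: Snap25 at -1.39, Syn1 at 0.81, Syp at 0.96 and Rab3c at 0.19. Deviations moved with probe base composition on this array, but Rab3c went the other way. Its probe is 35% G and C, and all genes from 35% to 40% had a median of -0.391 there. Syt1, the fast calcium sensor, was 0.37 higher on young deficient array 2. Nefl, the light neurofilament, was 0.10 higher on young wild-type array 3, within a group whose 4 values ran from 5.49 to 5.59. Nefm, the medium neurofilament, was 0.53 higher on old deficient array 3. In old wild type, Sypl was 0.34 higher on array 2, and Sv2a was at -0.02 on array 4, where the other 3 arrays were all at 3.58.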

How the results depend on the processing

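Counts of called members at 18 months, with age in wild type and in the interaction were 0 in all alternatives run. At 4 months 1 member was called, and 0 without the filter, with only the groups compared, with the replicate block or without the 3 arrays over 25 on the first component, and 3 with the probe composition correction; leaving out each array gave 0 to 1. With age in deficient brains the deposited table and quantile normalization each called 1 (Syt7; 3.17% and 2.65% of all genes) and the composition correction 5 (5.35%), and the latter called 1 in the mean over genotypes. In the mean over ages the mean of a gene's probes called 2 (Cplx1 and Sv2c; 3.59% of all genes), and leaving out each array gave 1 to 2. The median difference at 4 months was 0.07 in the deposited table and under quantile normalization, and 0.08 without young deficient array 2, against 0.13. The median interaction was -0.03 under quantile normalization, and the median age difference in wild type 0.01 without old wild-type array 2. In the mean over ages it was 0.04 without young deficient array 1, against 0.08, and at 18 months it ran from -0.02 to 0.02 as each array was left out. The SD within groups of the arrays' member medians, pooled over the groups, was 0.061. The composition correction and the 3-array fit were chosen after seeing the data. Same-numbered arrays correlated from -0.444 to 0.274 (median 0.0374 over 24 pairs), and differently numbered arrays had a median of 0.00192. These values gave no clear sign of pairing, but a weak pairing would give values this small, so it is not excluded. The replicate number is also the column of the slide, and the replicate block ended the Cplx1 call at 4 months (limma adjusted p 0.0574). The differences in calls were not traced to a cause, and the cause was not tested. The probe that stood for each member was well above background on all arrays. This is a call of detection, and the part of background in the differences was not tested.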
